A study of Oryctolagus cuniculus with 34 samples.

Results

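ETFA, ECHS1 and HADHB are 3 genes of mitochondrial fatty acid oxidation, followed here in the supraspinatus muscle of the rabbit rotator cuff after tendon repair. They were chosen by identifier, as ENSOCUG00000000769 (ETFA), ENSOCUG00000000473 (ECHS1) and ENSOCUG00000000012 (HADHB), and are 3 of the 23669 genes in the deposited count table. All 3 passed the filter on low counts. Skeletally mature female New Zealand White rabbits of about 6 months had the left supraspinatus tendon cut, were left for 8 weeks, and then had the tendon repaired. Both shoulders were sampled in 4 rabbits 1 week post-repair, in 5 after 2 weeks, in 4 after 4 weeks and in another 4 after 8 weeks, and muscle mRNA of the posterior lateral region was sequenced in 34 libraries. The left shoulder is called repair and the right shoulder of the same animal control. The study's methods describe the right shoulder as unoperated, whereas the labels name a sham with a cut of the skin. No group was tenotomised without repair, so tenotomy and repair cannot be told apart.

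Mitochondria break a fatty acid down in a repeated cycle in which an acyl-CoA dehydrogenase oxidises it, a hydratase adds water, and a dehydrogenase and a thiolase then release acetyl-CoA. ECHS1 is the short-chain enoyl-CoA hydratase of that cycle. HADHB is the beta subunit of the mitochondrial trifunctional protein and carries its thiolase for long chains. ETFA is the alpha subunit of the electron transfer flavoprotein, which takes electrons from the acyl-CoA dehydrogenases, and from dehydrogenases of amino acid breakdown, to ETFDH and so to the ubiquinone of the respiratory chain.

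The left library of rabbit 3, at 8 weeks, stood apart and was left out, as it was by the study at its quality check. It gave 1946 CPM (counts scaled to a common library size) for ECHS1, 100 for ETFA and 15.8 for HADHB, against ranges of 180 to 217, 151 to 202 and 82.5 to 114 in the other 3 repair libraries of that week. The remaining 33 libraries held between 9220035 and 28395188 counts on genes, and titles of 1 series covered weeks 1 and 8 (median 19343431 counts) while titles of another covered weeks 2 and 4 (median 10625163). A level at week 1 or 8 therefore cannot be told apart from its title series when set against week 2 or 4. In the 33 libraries the lowest expected count was 846.58 for HADHB, 1218 for ETFA and 1531 for ECHS1, so counting error was small beside the spread between rabbits. Values are CPM scaled by TMM, and were not compared between genes because transcript lengths were not used here. In bulk muscle, fewer cells of a type and less RNA per cell cannot be told apart.

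ETFA fell after repair. At 1 week it stood at 210, 182, 169 and 231 CPM in the control muscle of rabbits 5, 6, 7 and 8, and at 118, 116, 102 and 153 CPM in their repaired muscle. All 4 repaired muscles were below all 4 controls. The share of all genes separated in this way was not counted, so this gap and those of other genes below are descriptions. The group means were 198 ± 28.0 CPM (SD, n = 4) in control and 122 ± 21.7 CPM (SD, n = 4) in repair. In the limma-voom fit over all genes this was a log2FC of -0.71 (SE 0.22, 95% interval -1.15 to -0.26, adjusted p = 0.0338), or 61.3% of control. Of all 12937 genes tested at 1 week, 6.88% were called lower and 6.81% higher at an adjusted p of 0.05, and of the 3 genes ETFA was the one called. The fall was below the 2-fold change at which the study counts a gene as DE.

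At 2 weeks the decrease of ETFA was of like size but uneven among rabbits. Control muscle of rabbits 59, 60, 61, 62 and 64 held 190, 239, 203, 293 and 244 CPM, and repaired muscle 77.3, 225, 184, 171 and 138 CPM. Repair was lower than control in 5 of 5 rabbits, at 40.8%, 58.2% and 56.7% of the other shoulder in rabbits 59, 62 and 64 but at 94.0% and 90.7% in rabbits 60 and 61. Means were 234 ± 40.5 CPM and 159 ± 55.1 CPM (SD, n = 5 each), and the log2FC was -0.61 (SE 0.18, limma adjusted p = 0.0292), where 7.92% of all genes were called lower and 7.95% higher.

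ETFA was near its control level later. At 4 weeks the controls of rabbits 63, 66, 67 and 68 held 210, 195, 220 and 196 CPM and the repaired muscles 175, 177, 179 and 224 CPM. The log2FC was -0.13 (SE 0.21, 95% interval -0.55 to 0.29, limma adjusted p = 0.784), where 0.0464% of all genes were called lower. At 8 weeks rabbits 1, 2 and 4 held 173, 200 and 184 CPM in control and 151, 202 and 184 CPM in repair, with 149 CPM in the control of rabbit 3. The log2FC of 0.01 (SE 0.23, 95% interval -0.47 to 0.49, limma adjusted p = 0.999) still left room for a decrease as large as that of ECHS1 at 2 weeks, and 0.00773% of all genes were called there in either direction. Averaged over the 4 time points, ETFA fell by 0.36 on the log2 scale (SE 0.11, limma adjusted p = 0.00948), to 78.0% of control, where 17.7% of all genes were called lower and 22.4% higher.

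**Figure D1:**
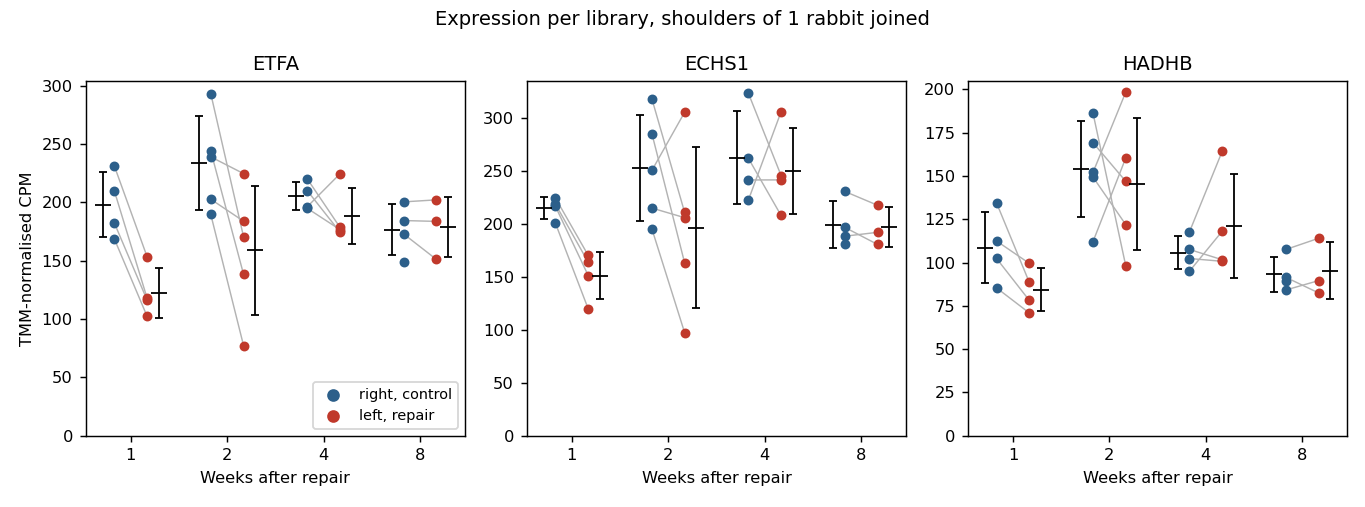
Expression of ETFA, ECHS1 and HADHB in each of 33 libraries (vertical axis, TMM-normalised CPM) against weeks after repair (horizontal axis). Blue points are right control muscle, red points left repaired muscle, grey lines join the shoulders of 1 rabbit, and black marks show the group mean ± SD. At 1 week all 4 repaired muscles lie below all 4 controls for ETFA and ECHS1, while the groups overlap for HADHB. The share of all genes separated in this way was not counted.

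Without the rabbit as a block, the calls of ETFA at single time points lay near the threshold. With the rabbit as a fixed block, ETFA was called at 1 week (log2FC -0.70, limma adjusted p = 0.0103) and at 2 weeks (log2FC -0.64, limma adjusted p = 0.00629). In that fit 11.5% and 12.4% of all genes were called lower. The blocked average was also called (limma adjusted p = 0.0022), where 19.9% of all genes were called lower. Libraries were left out in turn only from the fit without the block. At 1 week the adjusted p passed 0.05 when any of the 4 control libraries, or the repair library of rabbit 5, 6 or 7, was left out, with a log2FC between -0.77 and -0.63 and adjusted p between 0.0501 and 0.101. At 2 weeks leaving out rabbit 59's repair library ended the call (log2FC -0.38, limma adjusted p = 0.114) as did leaving out the control of rabbit 60, 62 or 64 (adjusted p = 0.0587, 0.0770 and 0.0617). The average over time points was called with each of the 33 libraries left out in turn (limma adjusted p from 0.00286 to 0.0218).

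ECHS1 stood at 216, 218, 200 and 224 CPM in the controls of rabbits 5, 6, 7 and 8 and at 151, 164, 120 and 170 CPM in their repaired muscle at 1 week. The groups did not overlap here either. The means of 215 ± 10.2 CPM and 151 ± 22.4 CPM (SD, n = 4 each) gave a log2FC of -0.52 (SE 0.23, 95% interval -0.98 to -0.05), which was not called (limma adjusted p = 0.111) and stayed so with the rabbit as a block (adjusted p = 0.0594). It was called when the week 2 repair library of rabbit 59 was left out (limma adjusted p = 0.0248), a library outside this comparison that enters the shared estimate of spread. The libraries of week 1 fitted alone called it too (limma adjusted p = 0.0205).

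At 2 weeks ECHS1 held 195, 250, 215, 285 and 318 CPM in the controls of rabbits 59, 60, 61, 62 and 64 and 97.2, 305, 206, 163 and 211 CPM in repair. Rabbit 60 went up to 122% of its control, and the other 4 were lower, at 49.8% to 95.8%. The log2FC of -0.42 (SE 0.19, limma adjusted p = 0.117) was not called without the block. It was called with the rabbit as a fixed block (log2FC -0.45, limma adjusted p = 0.0463) but not with the rabbit as a random block at the estimated correlation (limma adjusted p = 0.0699). Leaving out the repair library of rabbit 60 moved it to -0.61 (limma adjusted p = 0.0172).

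For ECHS1 at 4 weeks, repair ran from 208 to 306 CPM and control from 222 to 323 CPM, with a log2FC of -0.06 (SE 0.22, limma adjusted p = 0.903). At 8 weeks the ranges were 180 to 217 CPM and 181 to 231 CPM, with a log2FC of -0.02 (SE 0.24, limma adjusted p = 0.999). The average over time points was -0.26 (SE 0.11, limma adjusted p = 0.0640), and the fit with the rabbit as a block called it (log2FC -0.27, adjusted p = 0.0294), where 19.9% of all genes were called lower. It was also called without the control of rabbit 59 (adjusted p = 0.0463), the repair of rabbit 60 (0.0149) or the repair of rabbit 68 (0.0434).

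HADHB was not called at any time point. At 1 week the controls of rabbits 5, 6, 7 and 8 held 134, 85.4, 102 and 112 CPM and the repaired muscles 88.5, 70.9, 78.1 and 99.5 CPM. Repair was lower in 4 of 4 rabbits, but the groups overlapped, and the log2FC was -0.36 (SE 0.19, 95% interval -0.76 to 0.04, limma adjusted p = 0.190). At 2 weeks controls of rabbits 59, 60, 61, 62 and 64 held 186, 152, 112, 169 and 149 CPM and repaired muscles 98.1, 198, 160, 147 and 122 CPM. Rabbits 60 and 61 were higher in repair, at 130% and 143% of control, and the log2FC was -0.09 (SE 0.17, limma adjusted p = 0.711).

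The later values of HADHB spread to both sides of control. At 4 weeks repair ran from 101 to 164 CPM and control from 94.9 to 118 CPM (log2FC 0.18, SE 0.18, limma adjusted p = 0.660). At 8 weeks the ranges were 82.5 to 114 CPM and 84.1 to 108 CPM (log2FC 0.02, SE 0.21). Averaged over time points the log2FC was -0.06 (95% interval -0.26 to 0.13, limma adjusted p = 0.601). The expected counts of HADHB were not whole numbers in 33 of 34 libraries, so some of its reads were divided between genes, whereas those of ETFA and ECHS1 were whole in all 34, with no tolerance allowed and as deposited.

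**Figure D2:**
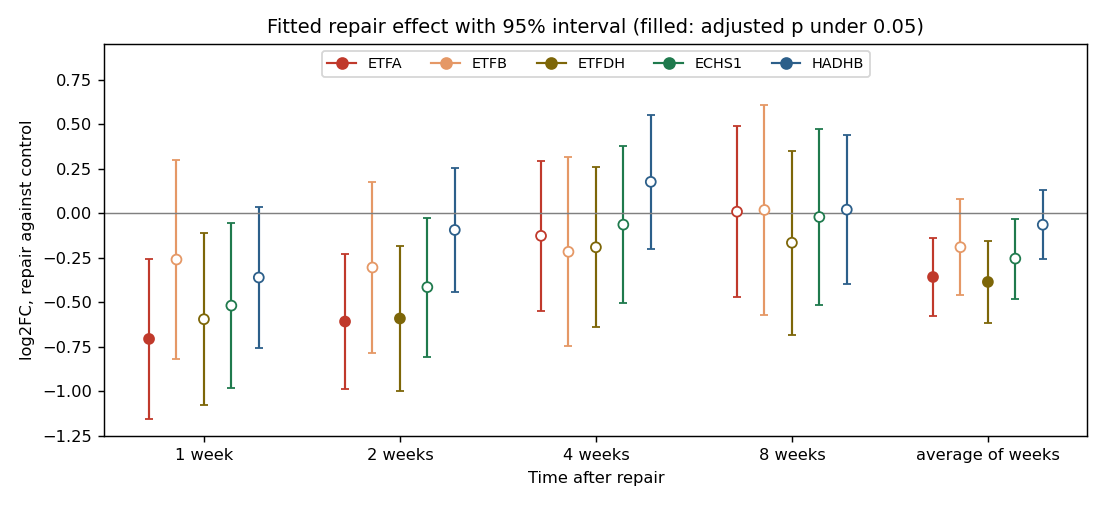
Fitted log2FC of repair against control (vertical axis) at each time point and averaged over them (horizontal axis) for ETFA, its partners ETFB and ETFDH, ECHS1 and HADHB. Bars are 95% intervals and filled points have a limma adjusted p under 0.05. The estimate of ETFA runs from -0.71 at 1 week to 0.01 at 8 weeks, and no interval of HADHB clears 0.

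The scaling of the libraries bears on every value above. When libraries were scaled by their totals alone, the median log2FC of all genes moved to 0.47 at 1 week and 0.29 at 2 weeks, from 0.05 and 0.06 with TMM. All calls at 1 week then split into 3858 higher and 233 lower (881 and 890 with TMM), at 2 weeks into 692 and 226 (1029 and 1024 with TMM), and for the average into 5789 and 576 (2892 and 2296 with TMM). ETFA was then no longer called (log2FC -0.28 at 1 week, -0.38 at 2 weeks), and the log2FC turned positive for HADHB at 1 week, 2 weeks and on average, for ETFA and ECHS1 at 4 weeks, and for ECHS1 at 8 weeks. Relative to the median gene, ETFA stood at -0.76 with TMM and -0.75 with totals at 1 week, and at -0.66 and -0.68 at 2 weeks. A change of scaling moves all genes by nearly the same amount, so this likeness is built in and is no separate evidence of a decrease.

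A comparison of genes inside 1 rabbit does not depend on that scaling. The log2 ratio of left over right was lower for ETFA than for HADHB in 16 of 16 rabbits, by 0.34 ± 0.18 (SD, n = 16) on the log2 scale, with a range of the difference from -0.66 to -0.05. The mean difference was -0.34 ± 0.08 in the 4 rabbits of week 1, -0.52 ± 0.11 in the 5 of week 2, -0.30 ± 0.11 in the 4 of week 4 and -0.07 ± 0.03 in the 3 of week 8. Within the title series of weeks 1 and 8 the difference was -0.22 ± 0.16 (SD, n = 7), below 0 in 7 of 7 rabbits, and within that of weeks 2 and 4 it was -0.42 ± 0.15 (SD, n = 9), below 0 in 9 of 9. This comparison was chosen after its values were seen, so the values are given as a description with no test. The shared reads of HADHB enter this difference, and their part in it was not tested.

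The mean of ECHS1 lay between those of ETFA and HADHB. Its log2 ratio was below that of HADHB in 13 of 16 rabbits, by 0.22 ± 0.23 (SD, n = 16), and that of ETFA was below ECHS1 in 11 of 16 rabbits, by 0.12 ± 0.17 (SD, n = 16). Over the 16 rabbits the mean log2 ratio of left over right was -0.41 ± 0.41 for ETFA (lower in 14 of 16), -0.29 ± 0.40 for ECHS1 (12 of 16) and -0.08 ± 0.39 for HADHB (10 of 16).

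**Figure D3:**
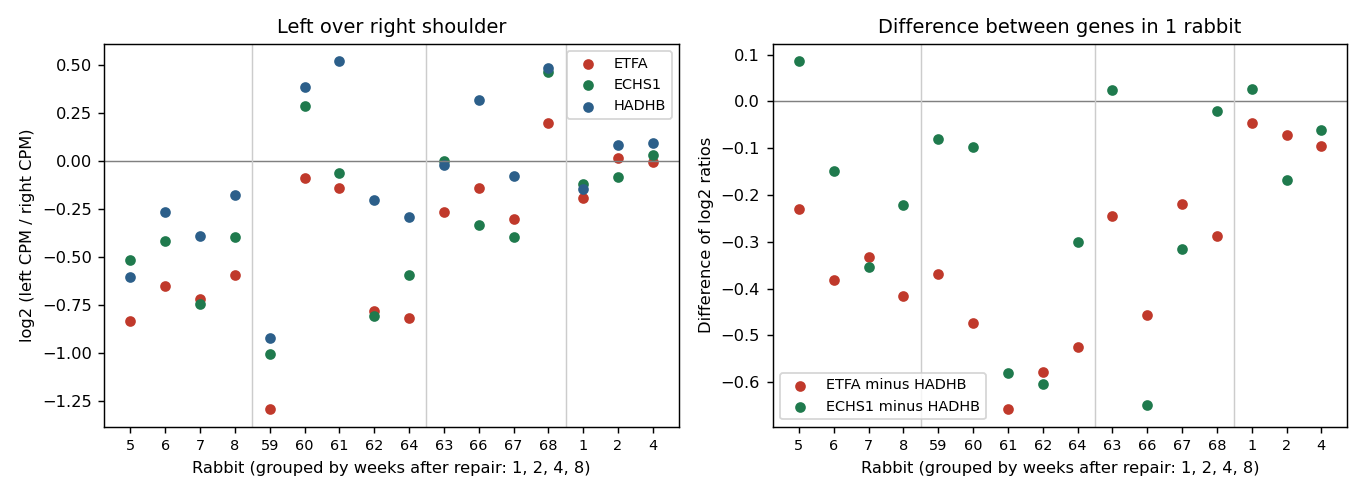
Left panel, log2 of left over right CPM (vertical axis) of ETFA, ECHS1 and HADHB in each of 16 rabbits (horizontal axis, ordered by weeks after repair). Right panel, the difference of the log2 ratios of ETFA and HADHB (red) and of ECHS1 and HADHB (green) in the same rabbits. All 16 red points of the right panel lie below 0, from -0.66 to -0.05.

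The electron transfer flavoprotein is a dimer of ETFA and ETFB, and ETFDH is the enzyme that receives its electrons. ETFDH held 263, 230, 242 and 264 CPM in the week 1 controls of rabbits 5, 6, 7 and 8 and 187, 147, 151 and 177 CPM in repair, with no overlap. Its log2FC was -0.60 at 1 week (SE 0.24, limma adjusted p = 0.0820, called with the rabbit as a block at adjusted p = 0.0491), -0.59 at 2 weeks (SE 0.20, adjusted p = 0.0433) and -0.39 on average (SE 0.11, adjusted p = 0.00929). In rabbit 59 at 2 weeks ETFDH stood at 32.1% of the other shoulder, and without that repair library its log2FC there was -0.33 and not called (limma adjusted p = 0.156). The call at 2 weeks was lost with 7 of the 33 libraries left out in turn, with quality weights (adjusted p = 0.159) and with totals alone (adjusted p = 0.0821), and the call on average was lost with totals alone (log2FC -0.14, adjusted p = 0.154). ETFB showed -0.26, -0.31 and -0.19, none of them called (limma adjusted p = 0.524, 0.349 and 0.249), also with the block. The log2 ratio of ETFA minus that of ETFDH averaged 0.01 ± 0.19 over 16 rabbits. ETFA minus ETFB averaged -0.18 ± 0.33 over the 16 rabbits, below 0 in 10 of them. By time point it was -0.44 ± 0.06 (SD, n = 4) at 1 week, -0.31 ± 0.37 (SD, n = 5) at 2 weeks, 0.09 ± 0.15 (SD, n = 4) at 4 weeks and 0.04 ± 0.33 (SD, n = 3) at 8 weeks, and it was below 0 in 4 of 4, 4 of 5, 1 of 4 and 1 of 3 rabbits. Rabbit 59 was the exception at 2 weeks, at 0.26.

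The repair effect was not shown to differ between time points. A moderated F-test that the 4 contrasts are equal gave a limma adjusted p of 0.924 for each of ETFA, ECHS1 and HADHB (unadjusted p = 0.0709, 0.320 and 0.263). It called 0 of 12937 genes with limma (652 at an unadjusted p of 0.05) and 0 with edgeR. Inside the series of weeks 1 and 8, the log2FC of ETFA differed by -0.71 (95% interval -1.37 to -0.06, limma adjusted p = 0.827). Inside that of weeks 2 and 4 it differed by -0.48 (95% interval -1.05 to 0.08, limma adjusted p = 1.00).

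Among controls alone, weeks 1 and 8 lay below weeks 2 and 4 by 0.34 for HADHB, 0.30 for ECHS1 and 0.22 for ETFA on the log2 scale, none called (limma adjusted p = 0.0780, 0.196 and 0.335), while 15.5% of all genes were called in that comparison. Over the 8 groups, ETFA ran from 234 CPM in control at 2 weeks down to 122 CPM in repair at 1 week, ECHS1 from 262 CPM in control at 4 weeks to 151 CPM and HADHB from 154 CPM in control at 2 weeks to 84.2 CPM. Repair at 1 week was the lowest group for all 3. No 2 groups next to each other in these orders differed by more than the larger of their SDs.

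Steps of fatty acid oxidation were read from 6 lists (uptake, activation, carnitine shuttle, the mitochondrial cycle, electron transfer and peroxisomal oxidation). Of their 52 genes, 21 had a symbol on exactly 1 identifier in the tables used and were tested. The 21 include ETFA, ECHS1 and HADHB, which were chosen with earlier results of these data known. Symbols that fell on more than 1 identifier, PHYH among them, were left out of the lists. At 1 week 2 of the 21 fell and 1 rose, where 6.88% of all genes were called lower and 6.81% higher. At 2 weeks 5 fell and 0 rose, against 7.92% and 7.95% of all genes. At 4 weeks 1 rose and at 8 weeks 0 were called, and on average 5 fell and 3 rose, against 17.7% and 22.4% of all genes. Their median log2FC was -0.23, -0.16, 0.03 and -0.03 at 1, 2, 4 and 8 weeks, beside 0.05, 0.06, 0.05 and 0.01 for all genes. Scaling by totals alone turned these counts and medians around: 0 fell and 6 rose at 1 week (median 0.20), 1 fell and 1 rose at 2 weeks (median 0.11), and 1 fell and 8 rose on average (median 0.16). With the rabbit as a block, 3 fell and 3 rose at 1 week and 6 fell and 1 rose at 2 weeks, where 11.5% and 12.4% of all genes were called lower and 14.8% and 19.2% higher. Without the repair library of rabbit 59, 1 of the 21 fell at 2 weeks and the median there was -0.01. Without that of rabbit 62, 2 fell at 2 weeks and 1 fell at 1 week. With each library left out in turn, 0 to 5 of the 21 fell at 1 week, 1 to 6 at 2 weeks and 5 to 6 on average. Without ETFA, ECHS1 and HADHB, 1 of the remaining 18 fell and 1 rose at 1 week, and 4 fell and 0 rose at 2 weeks. On average 4 of the 18 fell and 3 rose. The median log2FC of the 18 was -0.17 at 1 week and -0.14 at 2 weeks. For 10 of the 21 the symbol came only from a table ordered by coexpression in these same libraries, and those are no independent evidence of a direction.

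In the mitochondrial cycle, all 6 genes tested had a log2FC below 0 at 1 week (median -0.43, none called) and at 2 weeks (median -0.46). The 6 include ECHS1 and HADHB. With totals alone 3 of the 6 were below 0 at 1 week (median 0.00) and 4 at 2 weeks (median -0.25). HSD17B10, a hydroxyacyl-CoA dehydrogenase of short branched chains, fell by 0.67 at 2 weeks (SE 0.15, limma adjusted p = 0.00949). ACAA2, a thiolase, fell by 0.58 (SE 0.18, limma adjusted p = 0.0321). The call of HSD17B10 was made with each of the 33 libraries left out in turn and with totals alone, whereas that of ACAA2 was lost with 5 libraries left out in turn and with totals alone (log2FC -0.36, limma adjusted p = 0.0991). Without the repair library of rabbit 59 or 62, 1 of the 6 was called at 2 weeks. In the peroxisome, SCP2, a carrier and thiolase, fell by 0.35 at 1 week and by 0.35 at 2 weeks (limma adjusted p = 0.0490 and 0.0272), and the other 5 genes tested were not called. The call of SCP2 at 1 week was lost with 25 of the 33 libraries left out in turn (limma adjusted p up to 0.140) and that at 2 weeks with 4 of them, the repair libraries of rabbits 59 and 62 and the controls of rabbits 59 and 62 (adjusted p up to 0.112). With totals alone SCP2 was at 0.08 at 1 week and -0.11 at 2 weeks, neither called.

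Among the 6 genes of fatty acid entry tested, 2 rose at a single time point without the rabbit as a block. SLC25A20, the carnitine-acylcarnitine carrier of the inner membrane, rose by 0.67 at 1 week (SE 0.17, limma adjusted p = 0.0144) and on average by 0.31 (adjusted p = 0.00593). Of all genes, 6.81% and 22.4% were called higher in these 2 comparisons. CD36, a fatty acid transporter of the cell surface, rose by 1.41 at 4 weeks (SE 0.26, limma adjusted p = 0.0135), where 0.0773% of all genes were called higher, and its log2FC was 0.78 at 1 week (adjusted p = 0.0515). The call at 4 weeks was lost without the repair library of rabbit 63, 66 or 67 or the control of rabbit 66 (limma adjusted p from 0.0678 to 0.0913), and that of SLC25A20 at 1 week without the control of rabbit 5 (adjusted p = 0.0576). With the rabbit as a block 3 more calls were made: CD36 at 1 week (log2FC 0.77, limma adjusted p = 0.0353), SLC27A4, a fatty acid transport protein, at 1 week (log2FC 0.39, adjusted p = 0.0485) and ACSL5, an acyl-CoA synthetase, at 2 weeks (log2FC 1.51, adjusted p = 0.0185). In that fit 14.8% of all genes were called higher at 1 week and 19.2% at 2 weeks. CD36 is also made by adipocytes and macrophages. The summed level of the adipocyte markers ADIPOQ and LIPE was 307 to 586 CPM in repair and 74.8 to 176 CPM in control at 4 weeks, and 289 to 915 against 127 to 216 CPM at 1 week. The part of these cells in the rise was not tested.

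**Figure D4:**
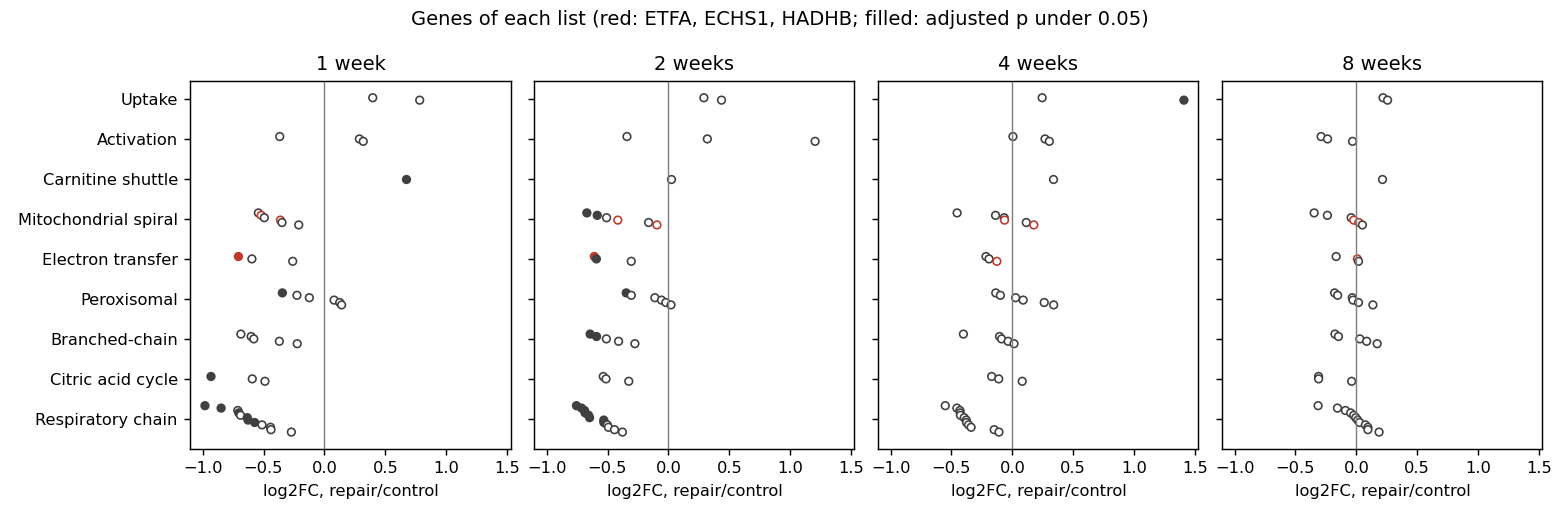
Log2FC of repair against control (horizontal axis) at 1, 2, 4 and 8 weeks for each tested gene of 9 lists (vertical axis, points of a list spread in height only for legibility). Red marks ETFA, ECHS1 and HADHB, and filled points have a limma adjusted p under 0.05. At 1 and 2 weeks all 12 respiratory chain genes and all 6 of the mitochondrial spiral lie left of 0, and the uptake genes lie right of it; with totals alone, not plotted, 11 and 12 of the 12 and 3 and 4 of the 6 were below 0 at 1 and 2 weeks.

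The respiratory chain oxidises the ubiquinol that ETFDH makes, and its complex I feeds the same ubiquinone from NADH. All 12 respiratory chain genes tested had a log2FC below 0 at 1, 2 and 4 weeks. The 12 include ATP5F1E, ATP5MC3 and ATP5MD, which are subunits of ATP synthase and not of the electron-carrying complexes. At 1 week 6 fell (median -0.63), where 6.88% of all genes were called lower, and at 2 weeks 8 fell (median -0.59), against 7.92%. At 4 and 8 weeks 0 were called (medians -0.39 and 0.00), and on average 11 fell, against 17.7%. With totals alone 2 fell at 1 week (median -0.20), 4 at 2 weeks (median -0.36) and 5 on average (median -0.16). COX5A, a subunit of cytochrome c oxidase, fell by 0.98 at 1 week (SE 0.26, limma adjusted p = 0.0188). COX7A2 of the same complex fell by 0.71 at 2 weeks (SE 0.16, limma adjusted p = 0.00949). The call of COX7A2 was made with each of the 33 libraries left out in turn, and that of COX5A was lost with 4 of them. Without the repair library of rabbit 59 or of rabbit 62, 1 of the 12 was called at 2 weeks in either case, whereas 10 were called on average. With each library left out in turn, 0 to 9 of the 12 fell at 1 week, 1 to 12 at 2 weeks and 9 to 12 on average. In the citric acid cycle, DLD, the shared dihydrolipoamide dehydrogenase, fell by 0.93 at 1 week (limma adjusted p = 0.0259), and the other 2 genes tested were not called there. The call of DLD was lost with 4 of the 33 libraries left out in turn.

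Markers of other cell types were read in the same libraries. The 5 fibroblast markers measured of 6 (COL1A1, COL3A1, DCN, PDGFRA and FN1) summed to 3929 to 14406 CPM in repair at 1 week against 1212 to 1573 CPM in control, and to 541 to 43172 against 646 to 1128 CPM at 2 weeks. Of the 5, 0 were called at 1 week, 2 rose at 2 weeks and 5 rose on average in limma. Of all genes, 6.81%, 7.95% and 22.4% were called higher in these comparisons. The 4 macrophage markers measured of 6 (CSF1R, CD163, MRC1 and ITGAM) summed at 2 weeks to 382 CPM in the repair of rabbit 59, 98.6 CPM in that of rabbit 62 and 4.87 to 13.3 CPM in the other 3, against 5.67 to 9.75 CPM in control. None of the 4 was called at any time point or on average in limma without the block. With the rabbit as a block 3 rose at 2 weeks, where 19.2% of all genes were called higher. In the same fit all 4 rose on average, where 3420 of 12935 genes were called higher.

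Of 13 fast muscle fibre markers 4 were measured, and they did not share a direction. MYH8, a developmental myosin, rose by 2.97 at 1 week (limma adjusted p = 0.0190) and by 1.86 on average (adjusted p = 0.00061). MYOM2, a protein of the sarcomere's M-band, fell by 1.67 at 1 week (limma adjusted p = 0.0198). TNNT3, the fast troponin T, was at -1.57 and ATP2A1, the fast calcium pump, at -1.19 at 1 week, neither called (limma adjusted p = 0.0993 and 0.146), and TNNT3 was called there with the rabbit as a block (adjusted p = 0.0220). The 4 summed to 13257 to 65045 CPM over all control libraries, and at 1 week to 3694 to 34221 CPM in repair against 33295 to 45304 CPM in control. Of 9 slow muscle fibre markers 1, MYH7B, was measured. Its log2FC was -0.73 at 1 week and -1.01 at 2 weeks, and it was not called at any time point or on average.

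Set beside ETFA in each rabbit, the fibroblast sum at 2 weeks was 38.3 times that of the other shoulder in rabbit 59, where ETFA was at 40.8% of control, and 17.9 times in rabbit 62 (ETFA at 58.2%). In rabbits 60 and 61 it was 1.06 and 1.74 times, with ETFA at 94.0% and 90.7%, and in rabbit 64 it was 0.775 times, with ETFA at 56.7%. At 1 week the fibroblast sum was 3.89, 9.93 and 3.03 times control in rabbits 5, 7 and 8, and 3929 against 1573 CPM in rabbit 6. The fast fibre sum at 1 week was 0.755, 0.105, 0.468 and 0.764 times control in rabbits 5, 6, 7 and 8. ETFA was at 56.2%, 63.7%, 60.7% and 66.3% there. At 2 weeks the fast fibre sum was 0.632, 1.54, 0.991, 0.408 and 0.949 times control in rabbits 59, 60, 61, 62 and 64. At 4 weeks it was 1.14, 0.293, 0.908 and 1.54 times control in rabbits 63, 66, 67 and 68. At 8 weeks it was 1.53, 1.01 and 0.632 times control in rabbits 1, 2 and 4. The part of cell composition in the decrease of ETFA was not tested.

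The genes whose log2 ratio ran closest to each of the 3 over the 16 rabbits were found among 2734 genes with a symbol and an average log2 CPM of at least 1. For ETFA they were SBDS, ACAA2, ETFDH, PMPCB and FDX1, with mean absolute differences of 0.14 to 0.15 on the log2 scale, where the median gene differed by 0.54. For ECHS1 they were COPS3, PMPCB, APOOL, ATP5MC3 and MECR (0.13 to 0.16, median gene 0.50). For HADHB they were CDK5RAP1, YWHAE, PHYH (ENSOCUG00000015244), MRPS22 and ACAD9 (0.16 to 0.19, median gene 0.46). ETFA and ECHS1 differed from each other by 0.17, and ETFA and HADHB by 0.34. The ratios of all genes in a rabbit share 2 libraries and their scaling. The symbols of ACAA2, ETFDH and ACAD9 came only from the table ordered by coexpression in these same libraries.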

How the data were processed

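Per the study's methods, the authors aligned single reads of stranded mRNA libraries to the rabbit genome OryCun2.0 with STAR, and RSEM with an Ensembl annotation gave the deposited expected counts per gene, unscaled. The submitters' processing notes also name FastQC, edgeR and limma. Symbols are human orthologs from the study's supplementary lists and were found for 3310 of the 12937 genes tested. For 1447 of them the symbol came only from the table ordered by coexpression in these same libraries. A list that holds such genes, inside or outside fatty acid oxidation, is to that extent no independent evidence of a direction. Genes without a symbol in the lists as read here, HADHA among them, were not analysed by name. The study itself mapped more genes to human orthologs than were found here. The members and lists were chosen with earlier results of these data known.

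Genes with a CPM above 1 in any of the 33 libraries were kept, TMM factors were computed (edgeR 4.0.16), and the counts were fitted with limma-voom (limma 3.58.1, R 4.3.3) with 1 coefficient for each of 8 groups, as in the study. Adjusted p-values are Benjamini-Hochberg over all genes, and called means an adjusted p under 0.05. Groups came from the labels' treatment and time codes. Shoulders were paired by rabbit: over 16 pairs the residuals of both shoulders correlated at 0.04 to 0.37 (median 0.22). The block is the rabbit as a fixed effect. For edgeR quasi-likelihood and DESeq2 1.42.0 counts were rounded. The limma-voom fit and the fit with the fixed block were tested on simulated counts, and the other alternatives were not. In all, 12 alternatives were tried, and 33 libraries were left out in turn. Named genes are ETFA, ECHS1 and HADHB, the partners with a symbol, list members called in a comparison (at most 12) and the 5 closest genes to each.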

Additional observations from a re-analysis of the deposited data

Results flagged for a closer look

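In the repair group of 4 weeks, the ETFA level of rabbit 68 lay apart at 224 CPM, with the other 3 libraries between 175 and 179 CPM. Its gap to the nearest was 0.919 of the range of the group. Of 30 groups examined in this way, chance alone flags about 1 in 20. ECHS1 and HADHB were also highest in this library among the repair libraries of 4 weeks, at 306 and 164 CPM.

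In the left library of rabbit 3, which was left out of every comparison, ECHS1 stood at 1946 CPM, above the highest control library at 323 CPM.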

How the results depend on the processing

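The alternatives moved ETFA as follows. All 34 libraries gave -0.71 at 1 week and -0.63 at 2 weeks, neither called (limma adjusted p = 0.101 and 0.0807), and -0.21 at 8 weeks. Totals alone gave -0.28, -0.38, 0.14 and -0.10 at 1, 2 and 4 weeks and on average. Quality weights gave -0.43 and the week alone -0.60 at 2 weeks, both uncalled. The replicate block with the rabbit fixed gave -0.0678 at 8 weeks and with the rabbit random -0.0043. ECHS1 was called at 1 week with quality weights (-0.50) and in the week alone (-0.53), at 2 weeks with the fixed block (-0.45), and on average with DESeq2 (-0.25), the fixed block (-0.27), the random block (-0.26) and quality weights (-0.19). It turned positive with totals alone at 4 weeks (0.20) and 8 weeks (0.0735), and at 8 weeks with all 34 libraries (0.91) and quality weights (0.0399). HADHB turned positive with totals alone at 1 week (0.0661), 2 weeks (0.14) and on average (0.19) and with quality weights at 2 weeks (0.0386), and was -0.60 with all 34 libraries at 8 weeks.

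With 1 library left out, ETFA ranged from -0.82 to -0.63, -0.76 to -0.38 and -0.0869 to 0.14 at 1, 2 and 8 weeks. ECHS1 ranged from -0.58 to -0.42, -0.61 to -0.20, -0.17 to 0.0400 and -0.0968 to 0.0534 at 1, 2, 4 and 8 weeks and from -0.30 to -0.20 on average. HADHB ranged from -0.22 to 0.0307 at 2 weeks and -0.12 to 0.12 at 8 weeks. Called genes ranged from 593 to 3596, 328 to 3456, 2 to 345 and 0 to 4 at the 4 time points and from 0 to 1 between weeks.

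Genes called at 1 week (1771 in the fit as reported) numbered 294 with all 34 libraries, 4091 with totals alone, 3401 and 2892 with the fixed and random block, 4179 with quality weights and 2952 in the week alone. At 2 weeks (2053) they numbered 412, 918, 4088, 3257, 816 and 5 in the same order, 3716 with edgeR and 4033 with DESeq2. At 4 weeks (16) they numbered 5, 9, 361, 189, 1032 and 0 in that order, 51 with no filter, 327 with edgeR and 675 with DESeq2. At 8 weeks (1) they numbered 3 with no filter, 0 with the minimum in 5 libraries, 5 with DESeq2 and 84 with quality weights. Between weeks (0), totals alone called 1 and no filter 2. Between control series (1999), 428 were called with all 34 libraries, 4734 with no filter and 4008 with quality weights.

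The mean log2 ratio within rabbits moved with totals alone to -0.27 and 0.14 for ETFA at 1 and 4 weeks, to -0.0930 and 0.0256 for ECHS1 at 1 and 8 weeks and to 0.0667 for HADHB at 1 week. The block changed no other call of the 3 genes. Apart from the scaling and the construction of each alternative, the cause was not tested. Groups of 3 to 5 rabbits limit what could be detected at single time points. In all, 1024 of the recomputed results kept their direction and side of the threshold. Another 23 reversed, 49 became weaker, 46 became stronger and 5 moved. Many of the 1024 came from leaving out a library of another time point.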

Other observations

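In the breakdown of branched-chain amino acids and propionyl-CoA, all 5 genes tested had a log2FC below 0 at 1 week (median -0.58, none called) and at 2 weeks (median -0.51). With totals alone 3 of the 5 were below 0 at 1 week (median -0.16) and 5 at 2 weeks (median -0.23), and 0 were called at either. At 2 weeks MCEE, the methylmalonyl-CoA epimerase, fell by 0.64 (limma adjusted p = 0.0288) and BCKDHB, a subunit of the branched-chain keto acid dehydrogenase, fell by 0.59 (limma adjusted p = 0.0438). The symbols of HIBADH, MCCC2, MCEE and BCKDHB came only from the table ordered by coexpression in these same libraries. These genes are no independent evidence of a direction. With the rabbit as a block 3 of the 5 fell at 1 week and 4 at 2 weeks, where 11.5% and 12.4% of all genes were called lower, and without the repair library of rabbit 59 0 were called at 2 weeks in limma (median -0.22).

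Of 4 regulators tested, UCP2, a mitochondrial carrier of the uncoupling protein family, rose by 1.68 at 1 week and by 1.89 at 2 weeks (limma adjusted p = 0.0430 and 0.0407), and ESRRB, an estrogen-related receptor, fell by 1.49 at 2 weeks (limma adjusted p = 0.0310). Of all genes, 6.81% were called higher at 1 week, and 7.95% higher and 7.92% lower at 2 weeks. The call of ESRRB was lost without the repair library of rabbit 59 (log2FC -0.97, limma adjusted p = 0.154), without the control of rabbit 59, 60, 61 or 62 (adjusted p from 0.0530 to 0.0652) and with totals alone (adjusted p = 0.0896). The calls of UCP2 were lost with 6 and 7 of the 33 libraries left out in turn at 1 and 2 weeks. The UCP2 call at 2 weeks was also lost with totals alone (limma adjusted p = 0.0638) and with quality weights (limma adjusted p = 0.119). With each library left out in turn, 0 to 2 of the regulators fell at 2 weeks and their median ran from -0.58 to -0.16. Of 5 glycolysis genes 0 were called at any single time point without the rabbit as a block. HK2, the hexokinase of insulin-sensitive muscle, was called with the block at 1 week (log2FC -0.72, limma adjusted p = 0.0237) and at 4 weeks (log2FC -0.79, adjusted p = 0.0449), and without it fell by 0.71 on average (limma adjusted p = 0.00012). The fit with the block called 11.5% of all genes lower at 1 week and 127 of 12935 at 4 weeks. On average, without the block, 17.7% of all genes were called lower.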
